A study of Chlorella variabilis with 6 samples.

Results

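The 6 genes described here are annotated as a cyclin B2 (CHLNCDRAFT_10568), a cdc2-related protein kinase (CHLNCDRAFT_15246), the condensin subunit SMC2 (CHLNCDRAFT_59234), a centrin (CHLNCDRAFT_140078), the microtubule-associated protein EB1 (CHLNCDRAFT_145362) and a kinesin-like protein (CHLNCDRAFT_9136) of the unicellular green alga *Chlorella variabilis* NC64A. They were picked by name from the genes that the study lists as differing between its wild type and its overexpression line, so the direction and the size of their differences chose them, and their values are given as a description with no test. They are 6 of the 9625 genes counted, and all 6 were among the 9101 genes that passed the filter on low counts. Their names rest on similarity to proteins of other organisms, such as the brown alga *Ectocarpus* and, for the centrin, the green alga *Tetraselmis*. The roles given below are those of the proteins whose names the genes carry, and they were not examined in these cultures.

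RNA was sequenced from 3 wild type (WT) cultures and 3 cultures of LOG OX1, all harvested 14 days post inoculation (dpi) and 1 h before the dark phase. LOG OX1 is a line of the same alga that carries *CvarLOG1*, a gene of the LOG family of cytokinin-activating enzymes, under a constitutive promoter on a vector introduced by electroporation and selected with hygromycin. WT was not transformed, and LOG OX1 is 1 line, so effects of the transgene, of its insertion and of the selection cannot be told apart. The comparison asks which transcripts differ between the line and WT at 14 dpi, which the paper places in the middle of the growth phase. The paper chose this age also because LOG OX1 was then visibly growing more slowly, and it reports fewer LOG OX1 than WT cells at 14 dpi. Equal age may therefore not be equal growth stage, and growth stage and line cannot be told apart here.

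The 6 names are those of proteins with parts in nuclear division or of their relatives. A name alone does not place a gene in division. A B-type cyclin binds and activates a cyclin-dependent kinase, of which cdc2 is the founding member, and the pair drives entry into mitosis. Whether the cdc2-related kinase here is such a mitotic kinase was not examined. SMC2 forms the core of condensin together with SMC4, and condensin compacts the chromosomes. Centrins are calcium-binding proteins of centrioles, basal bodies and related microtubule-organizing centres. EB1 rides on the growing ends of microtubules, and kinesins are motors that move along microtubules or take them apart. *Chlorella* divides by multiple fission inside the wall of the mother cell. In cultures grown in light and dark such divisions depend on the time of day, and only 1 time of day was sampled here. Bulk RNA cannot tell a change in the share of cells at a stage from a change in RNA per cell. At the same age and hour, the paper reports a smaller share of gated LOG OX1 cells than WT cells in G2/M by flow cytometry. The share in S phase was larger in LOG OX1.

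Total counts ranged from 10743741 to 12546100 in the WT libraries and from 10180885 to 12444029 in those of LOG OX1. The labels were checked with the overexpressed gene. *CvarLOG1* (CHLNCDRAFT_28106) had normalized counts of 227, 227 and 266 in WT and of 437, 464 and 409.6 in LOG OX1, and the groups did not overlap. Its log2 fold change was 0.86 (SE 0.086), with an adjusted p of 1.42e-07 by edgeR's quasi-likelihood test. An exact permutation test, two-sided, gave p = 0.1, the smallest that 3 against 3 libraries allow. A normalized count, here and below, is the count brought to the mean of the 6 effective library sizes. They are not corrected for gene length, so levels are compared between libraries and not between genes.

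Cyclin B2, SMC2, the centrin, EB1 and the kinesin-like protein were higher in LOG OX1, by 1.91-fold to 4.17-fold, and the cdc2-related kinase was lower by 3.15-fold. The libraries of the groups overlapped in none of the 6 genes. Among all tested genes, 74.2% had groups without overlap, and 36.9% lay higher in LOG OX1 without overlap and 37.4% lay lower without overlap, so the absence of overlap alone does not set these genes apart. A gene was called where it passed an adjusted p of 0.05 and differed by 1.5-fold or more, which 28.6% of tested genes did, 14.0% as higher and 14.6% as lower. The median log2 fold change was 1.13 over the 6 genes and 0.00103 over the 9101 genes tested. Because a difference in this same contrast chose the 6 genes, nothing is read from these shares.

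**Figure D1:**
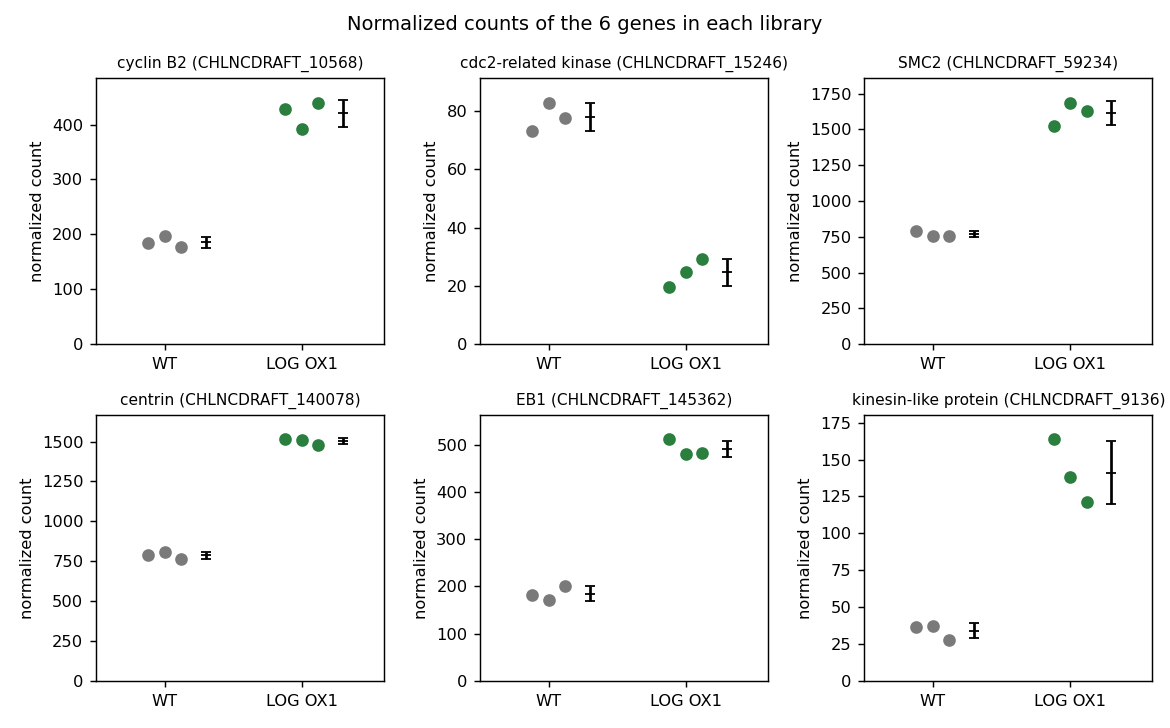
Normalized count (vertical axis, from 0, with its own scale in each panel) of each of the 6 genes in the 3 WT and the 3 LOG OX1 libraries. Points are libraries, and the bar beside them gives the mean and the SD; 5 genes are higher in every LOG OX1 library than in any WT library and the cdc2-related kinase is lower.

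The cyclin and the kinase stood on opposite sides. Cyclin B2, named as the activating subunit of a mitotic kinase, had normalized counts of 184, 196 and 176 in WT and of 429, 392 and 439.9 in LOG OX1. The lowest LOG OX1 library was 2.00 times the highest WT library. The means were 185 ± 10.1 (SD, n = 3) and 420.3 ± 24.8 (SD, n = 3), which gave a log2 fold change of 1.18 (SE 0.083), or 2.26-fold.

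The cdc2-related kinase, named for the catalytic partner of such cyclins, had normalized counts of 73.0, 82.8 and 77.7 in WT and of 19.8, 24.9 and 29.3 in LOG OX1. All 3 LOG OX1 libraries lay below the lowest WT library, which held 2.50 times the highest LOG OX1 value. The means were 77.8 ± 4.90 (SD, n = 3) and 24.6 ± 4.74 (SD, n = 3), a log2 fold change of -1.66 (SE 0.19). Behind these values stand 70, 87 and 86 counts in WT and 18, 27 and 26 counts in LOG OX1.

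Since both genes were counted in the same libraries, their ratio is free of the scaling of the library. For each count of the kinase there were 2.51, 2.37 and 2.27 counts of cyclin B2 in the WT libraries, a mean of 2.38 ± 0.124 (SD, n = 3). In the LOG OX1 libraries there were 21.7, 15.8 and 15.04, a mean of 17.5 ± 3.63 (SD, n = 3). The ratio of cyclin to kinase counts was thus 7.25-fold higher in LOG OX1, as a ratio of geometric means. Both genes were picked from those listed as changed, in opposite directions, so this shift follows from the choice and is no further evidence. In LOG OX1 it rests on only 18, 27 and 26 counts of the kinase. Which cyclin this kinase binds in *Chlorella* is not known from these data, and the ratio of counts is not a ratio of molecules, since the lengths of the transcripts were not used.

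SMC2, an ATPase of the condensin core, had normalized counts of 792, 756 and 758 in WT and of 1527, 1687 and 1630.4 in LOG OX1. The WT libraries lay close together, and every LOG OX1 library lay well above them. The means were 769 ± 20.2 (SD, n = 3) and 1615 ± 81.3 (SD, n = 3), a log2 fold change of 1.07 (SE 0.048), or 2.10-fold.

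A pair of further genes with chromosome condensation or SMC annotations can be set beside it, both of them chosen by the study as changed in these samples. CHLNCDRAFT_134635, annotated as a structural maintenance of chromosomes protein, had 258, 259 and 195 normalized counts in WT and 884, 935 and 833 in LOG OX1. The log2 fold change of this gene was 1.90 (SE 0.086), a larger difference than that of SMC2. CHLNCDRAFT_135132 carries no protein name but terms for the condensin complex, and it had 147, 129 and 148 normalized counts in WT and 353, 339 and 426 in LOG OX1. The log2 fold change here was 1.39 (SE 0.10). All 3 of these genes were higher in LOG OX1 without overlap, as were 36.9% of all tested genes. All 3 were listed for having changed, so nothing is read from this. Which SMC protein CHLNCDRAFT_134635 is was not determined.

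The centrin, listed as caltractin and named for proteins at the poles of the spindle, had normalized counts of 787, 810.2 and 762 in WT and of 1514, 1509.9 and 1479.6 in LOG OX1. It had the smallest difference of the 6 genes. The means were 786 ± 24.3 (SD, n = 3) and 1501 ± 19.0 (SD, n = 3), a log2 fold change of 0.93 (SE 0.043), or 1.91-fold. It was the only one of the 5 higher genes that did not reach 2-fold.

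EB1, which in other organisms binds growing microtubule ends and recruits further proteins to them, had normalized counts of 182, 170.4 and 201 in WT and of 511, 479 and 483 in LOG OX1. Every LOG OX1 library held more than any WT library by a wide margin. The means were 184 ± 15.7 (SD, n = 3) and 491 ± 17.5 (SD, n = 3), a log2 fold change of 1.41 (SE 0.083), or 2.66-fold.

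The kinesin-like protein CHLNCDRAFT_9136 showed the largest difference of the 6 genes. Its normalized counts were 36.5, 37.1 and 28.0 in WT and 164, 138 and 122 in LOG OX1, and its lowest LOG OX1 library was 3.27 times its highest WT library. The means were 33.9 ± 5.10 (SD, n = 3) and 141 ± 21.3 (SD, n = 3), a log2 fold change of 2.06 (SE 0.17), or 4.17-fold. It was a gene of few reads, with 35, 39 and 31 counts in WT and 149, 150 and 108 counts in LOG OX1.

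Under its terms for chromosomes and for cytoskeleton the study lists 4 further kinesins as changed, and they did not all differ in the same direction. Kinesins that it may list under other terms were not included. CHLNCDRAFT_8821 had normalized counts of 46.9, 46.7 and 40.7 in WT and of 151, 159 and 163 in LOG OX1. The difference was 1.82 (SE 0.13) on the log2 scale. CHLNCDRAFT_26240 was also higher in LOG OX1, from 11.8 ± 2.45 to 43.6 ± 4.43 normalized counts (SD, n = 3). This was a difference of 1.86 (SE 0.25) on the log2 scale. CHLNCDRAFT_21604 had only 1, 5 and 4 counts in WT and 29, 32 and 11 counts in LOG OX1, so that its groups did not overlap but the size of its difference is poorly set. CHLNCDRAFT_28927 was lower in LOG OX1, with normalized counts of 3064, 2855 and 2647 in WT and of 1410.1, 1517 and 1646 in LOG OX1. Its difference was -0.90 (SE 0.059) on the log2 scale. The first 4 of the 5 kinesins were thus higher in the line and the fifth was lower, and since all were listed for having changed, kinesins that did not differ are missing from this comparison.

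**Figure D2:**
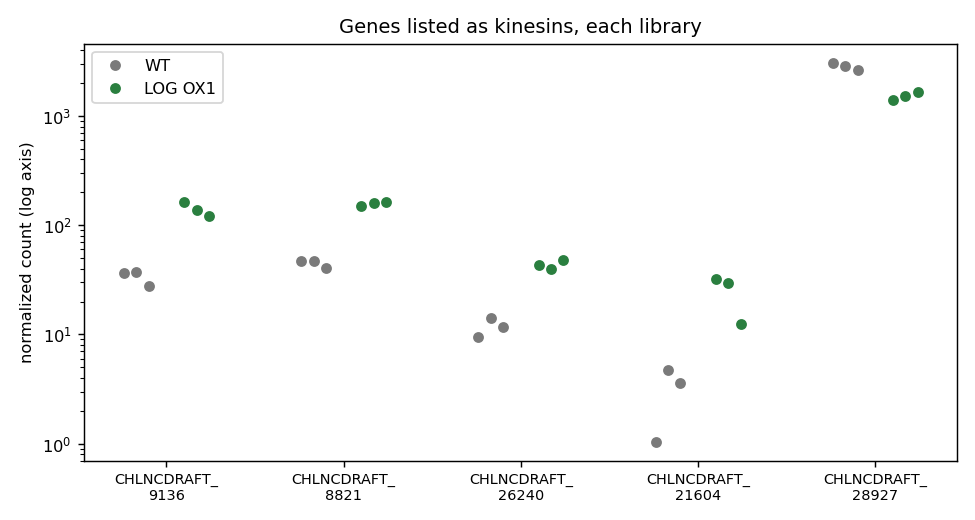
Normalized counts (log axis) of the 5 kinesins listed under the terms for chromosomes and for cytoskeleton in the 3 WT and the 3 LOG OX1 libraries, with points for libraries. The kinesin-like protein CHLNCDRAFT_9136 and 3 others are higher in every LOG OX1 library, and CHLNCDRAFT_28927, the one with the most counts, is lower.

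Within the distribution of all tested genes, the 6 genes lay away from the centre but not at its ends. The kinesin-like protein was exceeded by 1.68% of tested genes in log2 fold change, EB1 by 3.51%, cyclin B2 by 4.96%, SMC2 by 5.63% and the centrin by 7.08%. The cdc2-related kinase lay lower than all but 2.46% of tested genes. A fold change of at least 2 in the higher direction was found for 4 of the 6 genes and for 6.39% of tested genes, and one in the lower direction for the kinase and for 6.77% of tested genes. As above, these shares describe the position of genes that were chosen for differing.

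**Figure D3:**
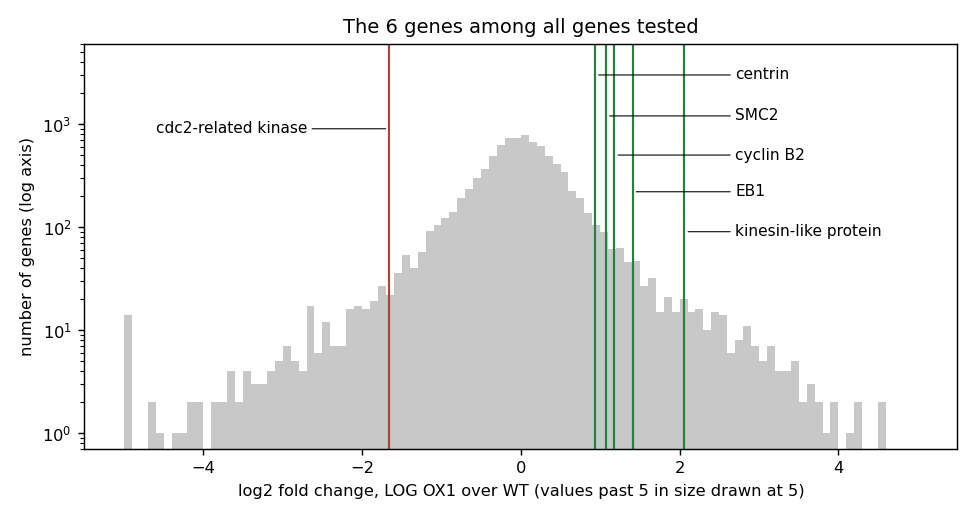
Number of tested genes (log axis) by log2 fold change of LOG OX1 over WT, for the 9101 genes tested, with vertical lines at the 6 genes. The 5 green lines lie between 0.93 and 2.06 and the red line of the cdc2-related kinase lies at -1.66.

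How far the replicates of these genes scattered depended on the gene. For the centrin the coefficient of variation between libraries was 3.10% in WT and 1.26% in LOG OX1, where counting error alone gives 3.50% and 2.63%. Its dispersion in the fit across all genes was lower than that of all but 2.22% of tested genes. SMC2 had 2.63% in WT and 5.03% in LOG OX1, with 3.54% and 2.53% from counting error. For cyclin B2 the coefficients were 5.45% and 5.90%, with 7.21% and 4.99% from counting error. For EB1 they were 8.52% and 3.57%, with 7.22% and 4.61% from counting error. In these 4 genes the replicates of both groups lay much closer to each other than the groups did. Since they were chosen for differing in these samples, this separation is no further evidence.

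The genes with the fewest counts were the least precise. The cdc2-related kinase had a coefficient of variation of 6.30% in WT and 19.2% in LOG OX1, where counting error gives 11.1% and 20.6%, so its spread was no larger than the counts allow. The kinesin-like protein had 15.1% in both groups, with 16.9% and 8.59% from counting error, so that in LOG OX1 its libraries differed by more than counting error alone gives. SMC2 and cyclin B2 in LOG OX1 and EB1 in WT also lay above counting error. Each coefficient rests on 3 libraries, so such excesses are poorly set. The dispersion of the kinesin-like protein exceeded that of 94.3% of tested genes and that of the kinase exceeded 87.9%. The values given for counting error treat each read as independent, which reads amplified by PCR are not.

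The profiles over the 6 libraries can be set against each other by the root mean square difference of log2(normalized count + 1), each gene centred on its own mean. By this measure the nearest pair was the centrin and SMC2, at 0.0892, followed by SMC2 and cyclin B2 at 0.112 and by the centrin and cyclin B2 at 0.136. EB1 lay 0.169 from cyclin B2, and the kinesin-like protein lay 0.379 from EB1, its nearest member. The farthest pair was the kinesin-like protein and the kinase, at 1.86. The distances mostly follow the sizes of the fold changes, and they are a description of 6 libraries that fall into the 2 groups by which the genes were chosen.

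Genes with a like profile were taken as the nearest pair for each member by the same measure, among the 9085 genes with a mean normalized count of at least 10. Around the centrin, 226 genes lay within 0.1, with CHLNCDRAFT_133169 (0.0188, log2 fold change 0.92) and CHLNCDRAFT_52630 (0.0210, log2 fold change 0.92) the nearest. Around SMC2 there were 118, led by CHLNCDRAFT_59183 at 0.0364 and by CHLNCDRAFT_37179, annotated as a fructose-bisphosphate aldolase, at 0.0393. Around cyclin B2 there were 72, led by CHLNCDRAFT_57598 at 0.0361 and CHLNCDRAFT_141891 at 0.0400.

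EB1 had 45 genes within 0.1, and the nearest were CHLNCDRAFT_140434, annotated as a malonyl-CoA:ACP transacylase of fatty acid synthesis, at 0.0417 and CHLNCDRAFT_134826 at 0.0435. The kinesin-like protein and the kinase, the genes with the fewest counts, had 0 genes within 0.1. Nearest to the kinesin-like protein were CHLNCDRAFT_144776 at 0.106 and CHLNCDRAFT_143823 at 0.114, with log2 fold changes of 2.06 and 2.05. Nearest to the kinase were CHLNCDRAFT_58822 at 0.116 and CHLNCDRAFT_141975 at 0.117, with log2 fold changes of -1.47 and -1.46. None of the nearest genes was another of the 6, and apart from the aldolase and the transacylase none of them carried a name in the sources used here.

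The members can also be placed among the changed genes that carry the same pathway terms. These lists were chosen on these samples, so that their directions are no independent evidence. Under the term chromosome and associated proteins stand 22 genes, which include all of the 6 but the kinase. Of these, 19 were higher in LOG OX1, with a median log2 fold change of 1.30 and a range of 0.80 to 2.91. The 19 also hold the fructose-bisphosphate aldolase CHLNCDRAFT_37179 named above and CHLNCDRAFT_56178, annotated as Obg-like ATPase 1. The term thus does not stand for chromosomal proteins alone. Only a kinesin-like gene and a DNA helicase gene stood above the kinesin-like protein in this list, EB1 and cyclin B2 lay in its middle, and SMC2 and the centrin lay in its lower part. The 3 genes that were lower had a median of -1.12 and a range of -3.45 to -0.73.

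Under the term cytoskeleton proteins stand 15 genes, with EB1 and the kinesin-like protein among them. The 9 that were higher had a median log2 fold change of 1.82, and the 6 that were lower had a median of -1.44. The kinesin-like protein was second from the top and EB1 sixth. On the lower side stood the dynein heavy chain CHLNCDRAFT_20468 (-1.47) and the dynein light chain CHLNCDRAFT_19114 (-1.58), subunits of a motor that moves the opposite way to most kinesins. The microtubule-severing subunit katanin p60 CHLNCDRAFT_10674 (-1.41) stood beside them. The cdc2-related kinase carries only the term protein kinases and is in neither list.

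**Figure D4:**
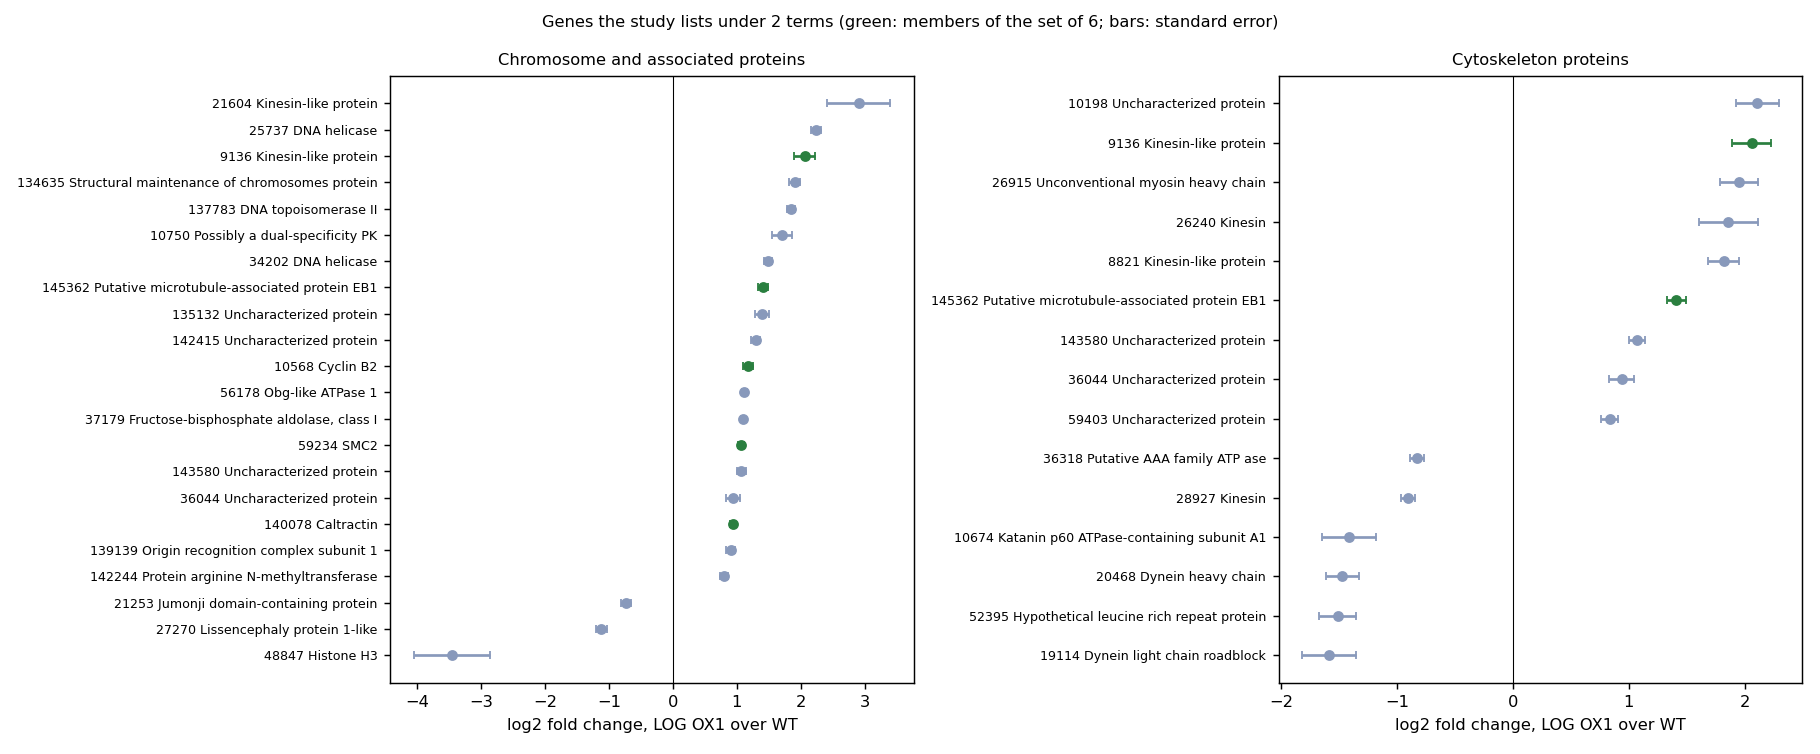
Log2 fold change of LOG OX1 over WT (horizontal axis) for the genes listed as changed under 2 pathway terms, 22 in the left panel and 15 in the right. Points are fitted values, bars are standard errors and green points are members of the set of 6; genes on both sides of 0 carry each term.

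A set of genes picked by place, not by how they differed, is given by the genes next to the 6 in the order of the reference annotation (*Chlorella variabilis* v 1.0). The use of this set was decided after the values were known. Of the 12 adjacent genes 11 were tested, and 1 rose and 3 fell by the same rule, under which 28.6% of all tested genes were called. The share of called neighbours is thus close to that of all genes. Their median log2 fold change was -0.35.

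Beside the kinase, which was lower in LOG OX1, CHLNCDRAFT_22742 rose from a mean normalized count of 262 ± 22.3 to 479 ± 49.1 (SD, n = 3). Its log2 fold change was 0.87 (SE 0.090), with an adjusted p of 2.10e-07 by edgeR's quasi-likelihood test. On the other side of the kinase CHLNCDRAFT_57791 had a log2 fold change of -0.53. Its adjusted p was 2.25e-06 by edgeR's quasi-likelihood test, but it did not reach 1.5-fold.

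Beside the centrin, which was higher, CHLNCDRAFT_140076 fell from a mean normalized count of 2889.8 ± 95.1 to 1274 ± 91.3 (SD, n = 3). Its log2 fold change was -1.18 (SE 0.051), with an adjusted p of 3.11e-12 by edgeR's quasi-likelihood test. The gene on the other side of the centrin, CHLNCDRAFT_55036, had a log2 fold change of 0.10 and did not pass the test (adjusted p = 0.486 by edgeR). Beside cyclin B2, CHLNCDRAFT_142049 fell from 97.8 ± 8.10 to 48.0 ± 2.37 normalized counts (SD, n = 3), which is -1.03 on the log2 scale, with an adjusted p of 1.18e-05 by edgeR.

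Beside EB1, CHLNCDRAFT_145361 fell from 1129 ± 54.6 to 744 ± 41.2 normalized counts (SD, n = 3), which is -0.60 on the log2 scale, with an adjusted p of 2.99e-08 by edgeR. This call was lost with upper-quartile scaling (-0.49), without WT replicate 2 (-0.56) and without LOG OX1 replicate 1 (-0.55), in each case because the fold change went under 1.5. The neighbours of SMC2 and the remaining neighbours of cyclin B2, EB1 and the kinesin-like protein had log2 fold changes between -0.37 and 0.25 and were not called. All 4 called adjacent genes lay on the opposite side of 0 from the member beside them, which was seen in the values and not tested. The adjacent genes that were not called lay on both sides. CHLNCDRAFT_30027 (0.25), CHLNCDRAFT_57791 (-0.53), CHLNCDRAFT_140230 (0.25) and CHLNCDRAFT_55036 (0.10) lay on the side of their member. CHLNCDRAFT_59235 (-0.37), CHLNCDRAFT_35290 (-0.35) and CHLNCDRAFT_138274 (-0.23) lay on the opposite side. Over the 3 genes on each side, 35 were tested, of which 3 rose and 5 fell, by the rule that called 28.6% of all tested genes. The gene 3 places before SMC2 rose as a called gene on the same side as SMC2.

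**Figure D5:**
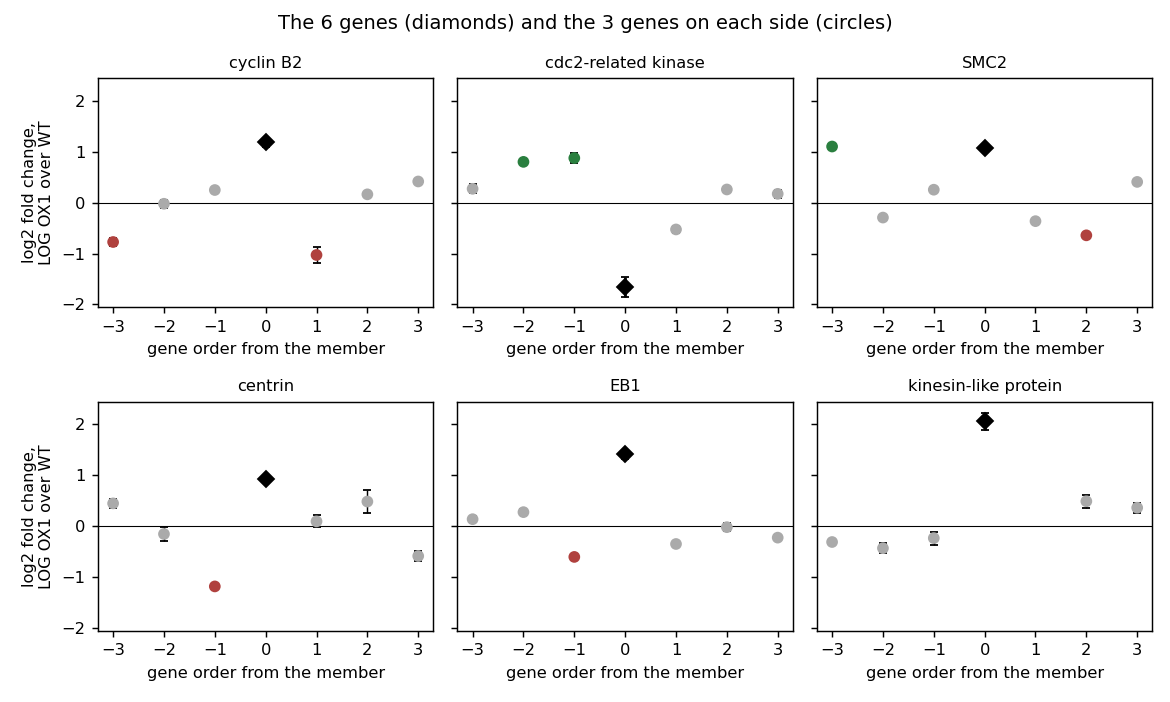
Log2 fold change of LOG OX1 over WT for each of the 6 genes (diamonds, at place 0) and for the tested genes up to 3 places away in the annotation's order (circles, green for called as higher, red for called as lower, grey for not called). Bars are standard errors; of the adjacent genes 1 was called as higher and 3 as lower.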

How the data were processed

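The 6 deposited tables hold counts of reads per gene, 1 table for each of 3 WT and 3 LOG OX1 cultures described as biological replicates. Per the labels and the methods, the authors prepared directional libraries, trimmed reads with Trim Galore, aligned them to the NC64A genome with HISAT2 and counted them with HTSeq, without normalization. Versions, strand setting and annotation release are not given in the sources used here, so counts of overlapping or near-identical genes are uncertain, and no coordinates, lengths or sequences are reported. Gene names come from the supplementary material of the study and gene order from assembly v 1.0. Within each group the replicates scattered more than counting error gives (chi-squared per degree of freedom 2.40 to 7.26) and none were identical.

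Counts were analysed with edgeR 4.0.16 (limma 3.58.1, R 4.3.3): filterByExpr with a minimum count of 10, TMM factors, a quasi-likelihood F test with condition as the only term, and Benjamini-Hochberg adjustment over 9101 genes. The call needed an adjusted p no higher than 0.05 and a difference of 1.5-fold or more, after the study's thresholds. Fold changes used a prior count of 0.125, and standard errors were derived from the F statistic. The test was also run on simulated counts with the same dispersion for all genes, scored by adjusted p without the fold threshold. Fitted dispersions differ by gene, so that run does not vouch for the calls given here. The permutation test used scipy 1.17.1, the figures were drawn with matplotlib 3.10.9, and the remaining steps ran in Python 3.11.15 (pandas 2.3.3, numpy 2.4.6).

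The members and lists were chosen with earlier results of these data known. The genes named are the 6, *CvarLOG1*, the nearest pair in profile for each member and the genes adjacent to each, and genes of the study's lists under the terms for chromosomes and for cytoskeleton, of which those named were picked after their values were seen. A planned search for protein relatives and for protein and promoter motifs could not be run, since no protein or promoter sequences were at hand. The adjacent genes took its place once values were known. Alternatives were DESeq2 1.42.0, scaling by RLE, by the upper quartile or by library size alone, other filters, other fold thresholds, a replicate block and each library left out in turn.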

Additional observations from a re-analysis of the deposited data

How the results depend on the processing

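No result changed direction. With upper-quartile factors the median of all genes moved to 0.11 on the log2 scale, and the log2 fold changes moved to 1.29 for cyclin B2, 1.18 for SMC2, 1.05 for the centrin and 1.52 for EB1; relative to that median the 6 values were 1.18, 1.07, 0.93, 1.41, -1.66 for the kinase and 2.06 for the kinesin-like protein. The share of calls that were higher in LOG OX1 was 49.0% with TMM and 61.0% with upper-quartile factors (1673 higher and 1068 lower). With no fold threshold 6536 genes and 9 adjacent genes were called, and with a fold change of at least 2 these were 1193 and 2, against 2602 and 4.

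Leaving out each library in turn gave 2615 to 2666 calls over all genes and 3 to 4 among the adjacent genes. The log2 fold changes then ranged from 1.14 to 1.23 for cyclin B2, from -1.78 to -1.53 for the kinase, from 1.04 to 1.12 for SMC2, from 0.91 to 0.96 for the centrin, from 1.35 to 1.48 for EB1, from 1.93 to 2.16 for the kinesin-like protein and from 0.82 to 0.95 for *CvarLOG1*. The alternatives for the adjacent genes were chosen after seeing the data. A stricter E value and a longer list of hits in the search for protein relatives were not run, as the search itself was not.

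The labels share replicate numbers, but same-numbered libraries did not deviate together (correlations -0.00946, 0.00176 and -0.212). The numbers were therefore not used as pairs in the main fit. This check cannot show whether cultures were grown or processed in pairs. With the replicate block 2603 genes and 4 adjacent genes were called, and the log2 fold changes were 1.18 for cyclin B2, -1.66 for the kinase, 1.07 for SMC2, 0.93 for the centrin, 1.41 for EB1, 2.05 for the kinesin-like protein and 0.86 for *CvarLOG1*.

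Depth limits the kinase and the kinesin-like protein most, with 18 to 39 counts per library in their lower groups.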

Other observations

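Other genes that the study lists beside these members, named after their values were seen, went both ways. The Lissencephaly protein 1-like gene CHLNCDRAFT_27270, whose animal counterpart regulates dynein, had normalized counts of 285, 282 and 270.1 in WT and of 122, 129 and 134 in LOG OX1, which is -1.12 (SE 0.090) on the log2 scale. CHLNCDRAFT_26915, annotated as an unconventional myosin heavy chain, an actin motor, had 61.6, 39.0 and 42.5 in WT and 160.5, 202 and 186 in LOG OX1, which is 1.95 (SE 0.16) on the log2 scale. CHLNCDRAFT_10750, annotated as a possible dual-specificity kinase, had 50.1, 38.1 and 35.2 in WT and 143, 117 and 143 in LOG OX1, which is 1.71 (SE 0.16) on the log2 scale. DNA topoisomerase II CHLNCDRAFT_137783, which untangles DNA before chromosomes separate, had a log2 fold change of 1.85. The groups overlapped in none of these 4 genes, as in 74.2% of all tested genes. All were chosen by the study for differing in these samples, so they are a description with no test.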
